A study of Bos taurus with 3 samples.

Results

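Transcription factors of the keratinocyte lineage (10 of the 19533 genes in the count matrix) were followed across cell states of the cow rumen epithelium. They were TP63, TFAP2A, KLF4, KLF5, GRHL1, GRHL3, OVOL1, ZNF750, EHF and ELF3, and they were taken as a list given by name. All 10 had UMIs in all 3 animals, between 172 UMIs in all for GRHL3 and 45806 for KLF4. A UMI (unique molecular identifier) marks 1 captured RNA molecule. The study collected rumen tissue of 3 adult Holstein dairy cows in lactation and prepared 1 single-cell library per cow, after the outer muscle had been stripped and the epithelium dissociated with enzymes. The cows carried no treatment, genotype or other label that set them apart, so they are replicates of 1 condition and comparisons were made between states within cows. Its purpose, as far as it bears on these genes, was a map of the epithelial cell types that take up and use fermentation products.

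The rumen is lined by a stratified squamous epithelium, in which cells leave a basal layer, stop dividing, build up keratins and junctions, and end as flattened cells at the lumen. In skin, TP63 holds cells in the stratified lineage and TFAP2A acts beside it, KLF5 is linked to proliferating and early differentiating cells, and KLF4, GRHL1, GRHL3, OVOL1 and ZNF750 switch on genes of the upper layers and the barrier. EHF and ELF3 are ETS-family factors that are restricted to epithelia, and ELF3 is known for its induction in upper layers.

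Cell states were set from the UMIs of 5 other genes, so that no member took part in setting them. The members and states were, however, chosen with earlier results of these data known. Cells with at least 3 UMIs of BPIFA2C (a secreted protein of the BPI-fold family) that made up at least 10 per 10000 of the cell's UMIs formed the BPIFA2C state. Of the others, cells with at least 2 UMIs of GJA1 (the gap junction protein connexin 43) were split at each cow's own median of GSTA1 (a glutathione transferase) into GSTA1-low and GSTA1-high GJA1 cells. Cells with no GJA1 and at least 3 UMIs of GSTA1 formed the GSTA1 cells without GJA1. Of the rest with no GJA1, the DLK2 cells held at least 2 UMIs of DLK2 (a membrane protein of the delta-like family) and lay at or under their cow's median of KRT15, and the KRT15 cells lay in their cow's top 20% for KRT15 (a keratin of basal cells) with no DLK2. Of 20728 cells, 7085 (34.2%) fell into a state, among them 1920 DLK2 cells, 1932 KRT15 cells and 265 BPIFA2C cells. The smallest sum, that of the BPIFA2C cells of cow 2, rested on 55 cells.

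The libraries held 3369, 7401 and 9958 cells and 38912809, 94856658 and 104189434 UMIs. The median UMIs per cell lay at 8412 to 9813 over the cows in DLK2 cells, 9609 to 13334 in KRT15 cells and 12809 to 19998 in BPIFA2C cells, and the median mitochondrial share at 8.95% to 9.98%, 11.7% to 19.7% and 13.7% to 22.9%. GSTA1 cells without GJA1 had median UMIs of 13053 to 17374, GSTA1-low GJA1 cells 13996 to 18449 and GSTA1-high GJA1 cells 14408 to 19040. Their mitochondrial shares were 12.3% to 20.4%, 16.1% to 26.5% and 13.6% to 22.0%. The gates for GJA1 and GSTA1 are counts of UMIs, so cells with more UMIs reach them more easily. KRT5 and KRT14, keratins of keratinocytes, stood at 27.6 to 81.6 and 16.8 to 89.3 UMIs per 10000 in the 18 sums (6 states of 3 cows), while the summed markers of fibroblasts, smooth muscle, endothelium and immune cells reached at most 0.010, 0.0135, 0.074 and 0.176 per 10000. The libraries shared 35 cell barcodes, and 242 cells had under 1% of mitochondrial UMIs, 55 of them in the BPIFA2C state. Immediate-early genes differed between cows: the sum of 17 of them ranged from 11.6 to 26.3 per 10000 over the states of cow 3, from 25.6 to 121 in cow 1 and from 41.2 to 123 in cow 2.

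Set against the KRT15 cells, ZNF750, GRHL1, GRHL3, OVOL1 and ELF3 were higher in the GJA1 and BPIFA2C states, TP63 was slightly lower in the GSTA1-high GJA1 and BPIFA2C cells, and KLF5 and ZNF750 were lower in DLK2 cells. The 5 factors named first could enter the test only by being high in states other than KRT15 and DLK2 cells, as described below. KLF4, EHF and TFAP2A passed the threshold in none of the 7 contrasts. The UMIs were summed per cow and state and fitted with edgeR's quasi-likelihood test with the cow as a block, and a gene counted as called at a Benjamini-Hochberg adjusted p under 0.05 over the 9262 genes tested and an absolute log2 fold change above 0.25. In DLK2 cells 2 members were called lower and 0 higher, where 10.3% and 8.28% of all genes tested were. In GSTA1 cells without GJA1, 4 were called higher (8.46% of all genes) and 0 lower (6.02%). In GSTA1-low GJA1 cells, 5 were called higher (12.7% of all genes) and 0 lower (12.0%). In GSTA1-high GJA1 cells, 6 were called higher (15.2% of all genes) and 1 lower (14.0%). In BPIFA2C cells, 5 were called higher (14.0% of all genes) and 1 lower (12.8%). The 5 contrasts share the KRT15 sums and are not independent of each other. Further, GSTA1-high against GSTA1-low GJA1 cells gave 1 call, higher (0.615% of all genes, with 0.367% lower), and BPIFA2C against GSTA1-high GJA1 cells gave 0 (1.00% of all genes higher and 0.378% lower), with 3 members at an unadjusted p under 0.05 in edgeR and 0 called by DESeq2.

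All 10 members passed the filter on low counts, but not by the same route. TP63, KLF4, KLF5, EHF and TFAP2A were over the filter's minimum, which is 10 UMIs at the median depth of the sums, in all 18 sums. ZNF750 was over it in 14 sums, OVOL1 in 13, GRHL1 in 10, ELF3 in 7 and GRHL3 in 5. GRHL1, GRHL3 and ELF3 reached it in none of the KRT15 or DLK2 sums. ZNF750 reached it in 2 KRT15 and 0 DLK2 sums and OVOL1 in 1 and 1, which is fewer sums than the filter asks for. All of these factors could thus enter the test only by being high elsewhere. Their share in the counts above is a description and not support for a direction of the group. Their adjusted p-values below carry the same limit.

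**Figure D1:**
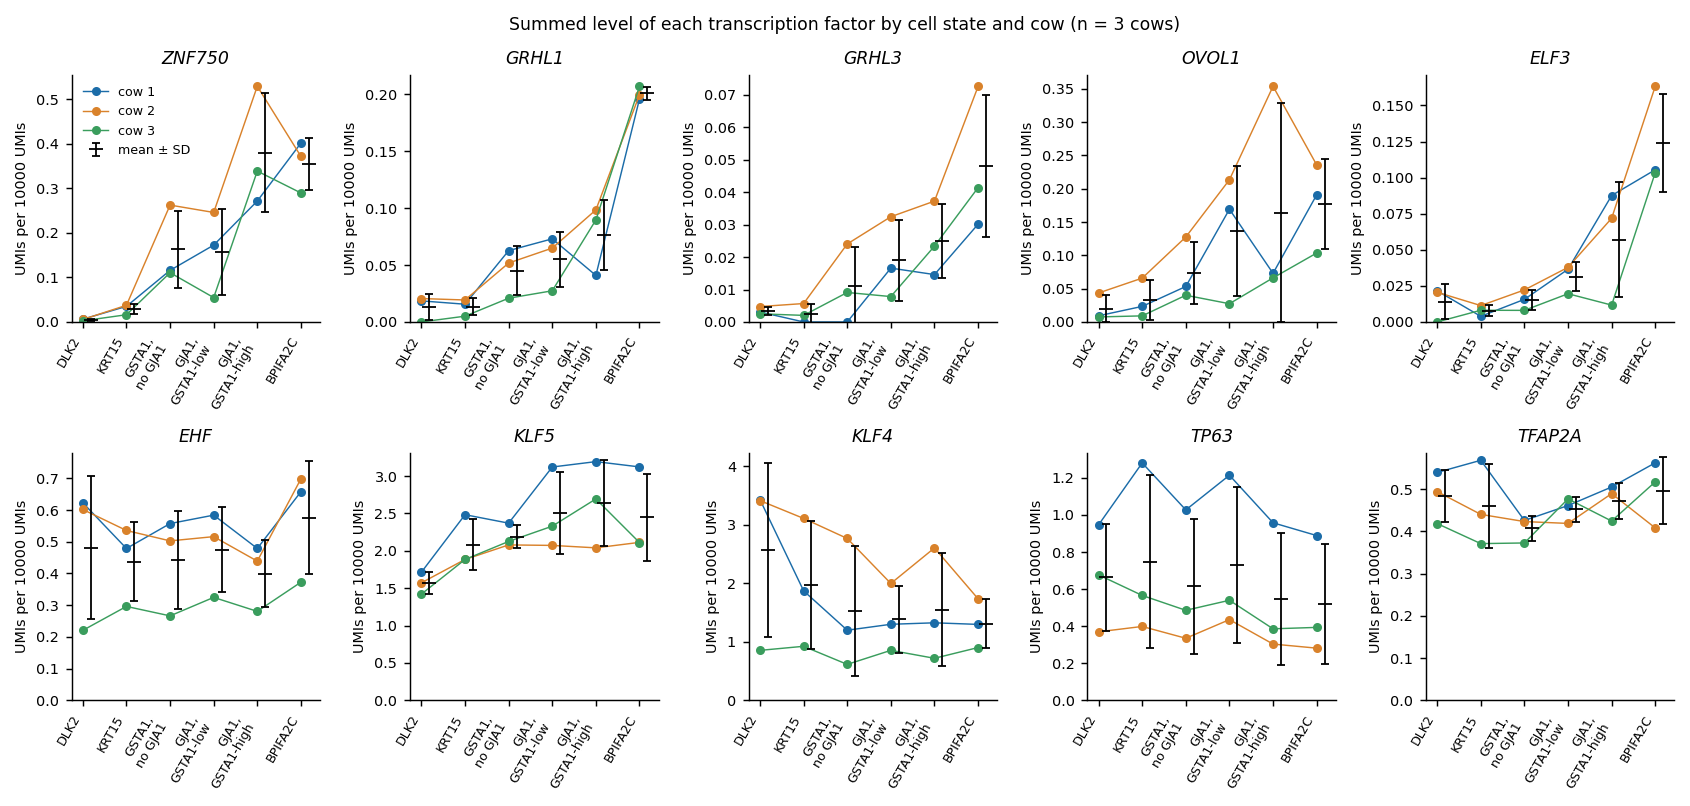
Each panel plots 1 transcription factor, with the 6 cell states on the x axis and its summed level in UMIs per 10000 UMIs on a linear y axis from 0. Coloured points and lines are the 3 cows and the black mark beside them is their mean ± SD. ZNF750 lies below 0.04 in every DLK2 and KRT15 sum and above 0.2 in every GSTA1-high GJA1 and BPIFA2C sum, while TP63, KLF4 and EHF separate the cows more than the states.

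ZNF750, a zinc finger factor that acts downstream of TP63 in skin, had a wide range over the states. In DLK2 cells it stood at 0.0062, 0.0055 and 0.0025 UMIs per 10000 in cows 1 to 3, which were 2, 7 and 1 UMIs. In KRT15 cells it was at 0.035, 0.037 and 0.016. Every DLK2 sum was thus under every KRT15 sum. The GSTA1 cells without GJA1 held 0.116, 0.262 and 0.111, and the GSTA1-low GJA1 cells 0.173, 0.246 and 0.055. In GSTA1-high GJA1 cells the level was 0.272, 0.529 and 0.339, and in BPIFA2C cells 0.402, 0.372 and 0.290. The 2 last states overlapped and both lay above all KRT15 sums in every cow. ZNF750 fell by 2.74 ± 0.55 (log2 fold change ± SE) in DLK2 against KRT15 cells (edgeR adjusted p = 0.00091, and 0.084 without cow 2). It rose by 2.52 ± 0.28 in GSTA1 cells without GJA1 (adjusted p = 4.1e-06), by 2.49 ± 0.31 in GSTA1-low GJA1 cells (adjusted p = 3.5e-06), by 3.80 ± 0.27 in GSTA1-high GJA1 cells (adjusted p = 5.5e-10) and by 3.80 ± 0.31 in BPIFA2C cells (adjusted p = 4.0e-09), all against KRT15 cells and with edgeR. It was the sole member called between the GJA1 states, at 1.31 ± 0.23 higher in GSTA1-high cells (edgeR adjusted p = 0.0021), and this held with each cow left out. Between BPIFA2C and GSTA1-high cells the log2 difference was -0.0078 ± 0.24. In the fit without the cow as a block, ZNF750 remained called in the GSTA1-low, GSTA1-high and BPIFA2C cells against KRT15 cells (adjusted p = 0.022, 0.00058 and 0.00048) and was not called in DLK2 cells (0.111), in GSTA1 cells without GJA1 (0.126) or between the GJA1 states (1.00). In the cells at or under their cow's median for immediate-early genes, the fall in DLK2 cells was 1.78 with an adjusted p of 0.075. From these same cells, the study had listed ZNF750 among genes high only in its TM4SF1-marked spinous cells, which also had high GJA1 and GSTA1. The calls of ZNF750 in GJA1 cells are thus not independent of that result.

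The GSTA1-low and GSTA1-high names hold within a cow and not across cows. In cow 3 the GSTA1-low GJA1 cells held 9.13 UMIs of GSTA1 per 10000, against 8.82 in the GSTA1-high GJA1 cells of cow 1 and 9.94 in those of cow 2. ZNF750 in those GSTA1-low cells of cow 3 was nonetheless at 0.055, the lowest of all 12 sums outside the DLK2 and KRT15 states.

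GRHL1 and GRHL3 are grainyhead-like factors that control genes of cell junctions and of the cornified envelope. GRHL1 gave 0.016, 0.019 and 0.0051 UMIs per 10000 in the KRT15 cells of cows 1 to 3, from 4, 17 and 5 UMIs, and 0.018, 0.021 and 0 in DLK2 cells. It gave 0.041, 0.098 and 0.090 in GSTA1-high GJA1 cells. In BPIFA2C cells it stood at 0.196, 0.200 and 0.207, above all other sums and with little spread between the animals. GRHL1 rose against KRT15 cells by 1.58 ± 0.48 in GSTA1 cells without GJA1 (edgeR adjusted p = 0.029), 2.06 ± 0.52 in GSTA1-low GJA1 cells (0.0047), 2.56 ± 0.48 in GSTA1-high GJA1 cells (0.00029) and 4.00 ± 0.48 in BPIFA2C cells (1.0e-06). The first of these calls was lost without cow 1 (adjusted p = 0.109) and without cow 2 (0.121), with stricter gates (0.057) and in cells of 5000 to 15000 UMIs (0.200). The second was lost with looser gates (1.34, adjusted p = 0.110) and in cells of 5000 to 15000 UMIs (1.42, 0.430). BPIFA2C cells were 1.44 ± 0.40 above GSTA1-high GJA1 cells with an adjusted p of 0.088, which became 0.013 without cow 3 (log2 difference 1.51), and the ranges of the cows did not overlap. Without the block the calls in GSTA1-high GJA1 cells (adjusted p = 0.033) and BPIFA2C cells (0.0015) remained, and those in the other 2 states did not (0.516 and 0.127).

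GRHL3 was counted with so few molecules that its levels carry wide counting error. It had 0, 5 and 2 UMIs in the KRT15 cells of cows 1 to 3 and 1, 6 and 1 UMIs in the DLK2 cells. It had 5, 14 and 6 UMIs in GSTA1-high GJA1 cells and 6, 8 and 4 in BPIFA2C cells, which made 0.030, 0.073 and 0.041 per 10000 in the latter. Cow 1 held no GRHL3 in its 204 GSTA1 cells without GJA1. With the limit that GRHL3 entered the test only through states in which it was high, its fitted log2 difference from KRT15 cells was 1.85 ± 0.56 in GSTA1 cells without GJA1 (edgeR adjusted p = 0.027), 2.57 ± 0.60 in GSTA1-low (0.0027) and 2.98 ± 0.56 in GSTA1-high GJA1 cells (0.00031), and 3.96 ± 0.62 in BPIFA2C cells (3.6e-05). In the GSTA1 cells without GJA1 the call was lost without cow 3 (adjusted p = 0.205) and with DESeq2 (0.061) and stricter gates (0.136). GRHL3 did not pass the filter, and so was not tested in any contrast, without cow 2, in cells of 5000 to 15000 UMIs, without cycling cells, or in cells at or under the median for immediate-early genes. Without the block only the call in BPIFA2C cells remained (adjusted p = 0.016), with 0.065 in GSTA1-high GJA1 cells, 0.164 in GSTA1-low GJA1 cells and 0.710 in GSTA1 cells without GJA1.

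OVOL1, a zinc finger repressor that ends proliferation as keratinocytes differentiate, rose in the same 4 states but differed strongly between cows. It was at 0.023, 0.066 and 0.0091 UMIs per 10000 in the KRT15 cells of cows 1 to 3 and at 0.0092, 0.043 and 0.0075 in DLK2 cells. It was at 0.073, 0.354 and 0.066 in GSTA1-high GJA1 cells and at 0.191, 0.236 and 0.103 in BPIFA2C cells. Cow 2 was highest in each of the 6 states. Every cow's own BPIFA2C sum was above its KRT15 sum, and the lowest GSTA1-high sum was level with the highest KRT15 sum. Against KRT15 cells OVOL1 rose by 1.23 ± 0.34 in GSTA1 cells without GJA1 (edgeR adjusted p = 0.018), 2.01 ± 0.35 in GSTA1-low GJA1 cells (0.00018), 2.26 ± 0.34 in GSTA1-high GJA1 cells (2.0e-05) and 2.54 ± 0.40 in BPIFA2C cells (4.8e-05). The first of these calls was lost without cow 3 (adjusted p = 0.157), with stricter gates (0.053), in cells of 5000 to 15000 UMIs (0.152) and in cells at or under the median for immediate-early genes (0.198). None of the 4 calls was made without the block (adjusted p from 0.147 to 0.955).

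ELF3 rose in 3 of the 4 states in which the factors above did. It had 1, 10 and 8 UMIs in the KRT15 cells of cows 1 to 3 (0.0039, 0.011 and 0.0081 per 10000) and 7, 26 and 0 UMIs in the DLK2 cells. It reached 0.088, 0.072 and 0.012 in GSTA1-high GJA1 cells and 0.105, 0.163 and 0.103 in BPIFA2C cells. All 3 BPIFA2C sums were above all other sums of ELF3, and cow 3 stayed low up to the GSTA1-high GJA1 cells, where it had 3 UMIs. In GSTA1 cells without GJA1 the log2 difference from KRT15 cells was 0.61 ± 0.52 (edgeR adjusted p = 0.489). ELF3 rose by 1.62 ± 0.52 in GSTA1-low GJA1 cells (adjusted p = 0.026), but this call was lost without cow 1 (0.140) and without cow 2 (0.224). It rose by 2.55 ± 0.46 in GSTA1-high GJA1 cells (adjusted p = 0.00017) and by 3.61 ± 0.48 in BPIFA2C cells (4.0e-06). In cells of 5000 to 15000 UMIs the calls in BPIFA2C cells (2.94, adjusted p = 0.223) and GSTA1-low GJA1 cells (2.23, 0.164) were lost, and with looser gates that in GSTA1-low GJA1 cells (1.02, 0.165). The latter was also lost in the cells at or under their cow's median for immediate-early genes (1.74, 0.055). Without the block the calls in GSTA1-high GJA1 (adjusted p = 0.037) and BPIFA2C cells (0.0042) remained and that in GSTA1-low GJA1 cells did not (0.261).

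EHF, the other ETS factor, was called in no contrast. In cows 1 to 3 it was at 0.623, 0.602 and 0.221 UMIs per 10000 in DLK2 cells and at 0.479, 0.536 and 0.296 in KRT15 cells. In BPIFA2C cells it was at 0.658, 0.698 and 0.372, each cow's highest level. Cow 3 was the lowest cow in every state. The log2 difference of BPIFA2C from KRT15 cells was 0.40 ± 0.15 with an edgeR adjusted p of 0.052, and it passed with DESeq2 (0.43, adjusted p = 0.047), without the mitochondrial genes (0.41, 0.048), with looser gates (0.42, 0.0079) and in the cells at or under their cow's median for immediate-early genes (0.72, 0.0019). In the other contrasts against KRT15 cells the differences ran from -0.14 to 0.06. In GSTA1-high GJA1 cells EHF stood at 0.479, 0.439 and 0.280, and the log2 difference of BPIFA2C cells from these was 0.54 ± 0.16. This difference had an edgeR adjusted p of 0.130 and was called with looser gates (0.57, 0.017) and in the cells at or under their cow's median for immediate-early genes (0.66, 0.043).

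**Figure D2:**
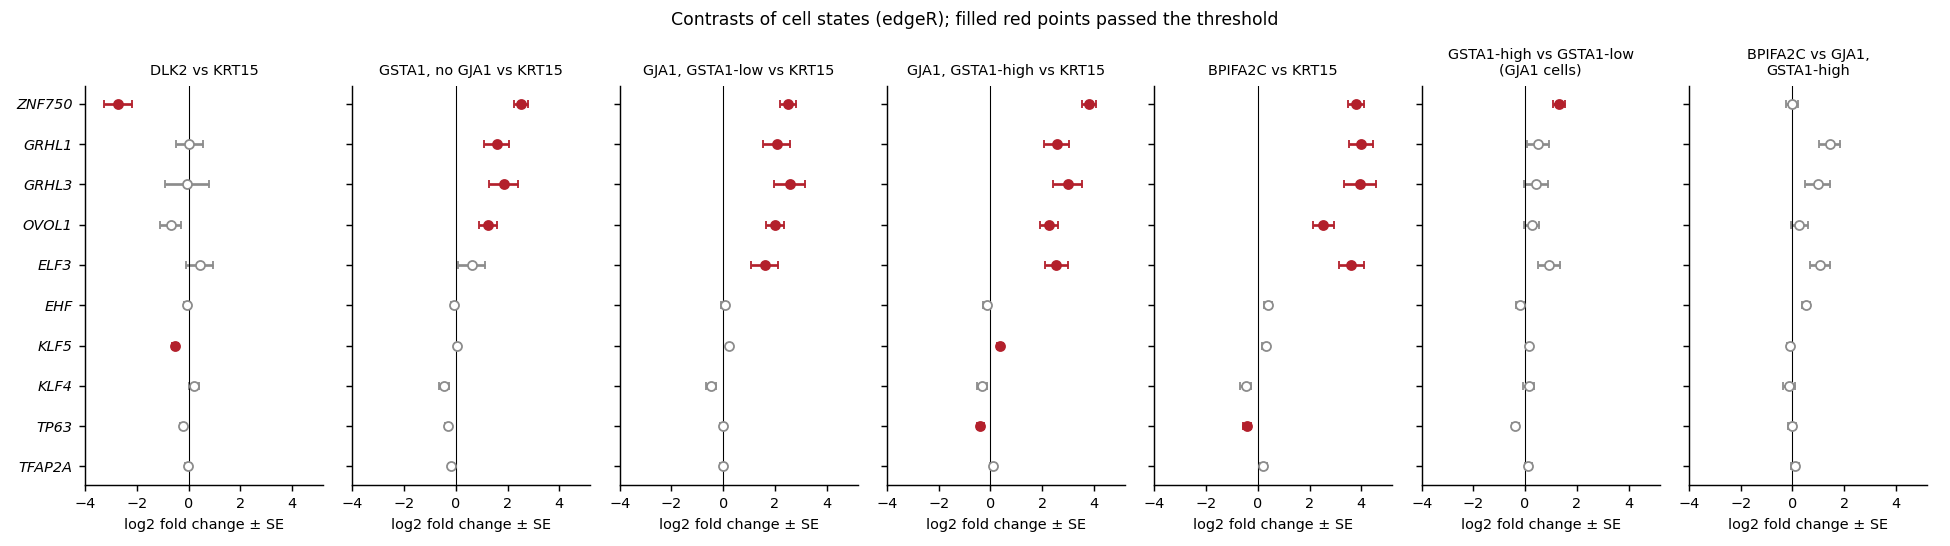
Each panel is 1 contrast of cell states and each point the log2 fold change of 1 transcription factor from edgeR, on a linear x axis. The bar is ± 1 SE from the fit of all states of the 3 cows with the cow as a block, and not the spread between cows. Filled red points passed the threshold and open grey points did not. ZNF750 is the left-most point in DLK2 against KRT15 cells, at -2.74, and the 5 uppermost factors are all red in the GJA1 and BPIFA2C contrasts against KRT15 cells. These 5 could enter the test only by being high outside the KRT15 and DLK2 cells, so their shared direction is a description.

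KLF5 moved little but evenly. It stood at 1.71, 1.57 and 1.42 UMIs per 10000 in the DLK2 cells of cows 1 to 3 and at 2.48, 1.88 and 1.88 in KRT15 cells. It was at 3.19, 2.04 and 2.69 in GSTA1-high GJA1 cells and at 3.12, 2.11 and 2.11 in BPIFA2C cells. The DLK2 range was wholly below the KRT15 range, and all other neighbouring states overlapped. KLF5 fell by 0.53 ± 0.11 on the log2 scale in DLK2 cells (edgeR adjusted p = 0.0015, kept with each cow left out). It rose by 0.38 ± 0.11 in GSTA1-high GJA1 cells (adjusted p = 0.013), a call lost without cow 1 (0.062) and without cow 3 (0.141) and in cells of 5000 to 15000 UMIs (0.072). In BPIFA2C cells the difference was 0.30 ± 0.12 (adjusted p = 0.062). It passed without cow 2 (0.40, adjusted p = 0.032), with looser gates (0.36, 0.0094), in cells at or under their cow's median for immediate-early genes (0.45, 0.0033), without the mitochondrial genes (0.30, 0.048) and in cells with at least 1% of mitochondrial UMIs (0.36, 0.024). Without the block neither the call in DLK2 cells (adjusted p = 0.232) nor that in GSTA1-high GJA1 cells (0.302) was made.

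KLF4, which drives late differentiation in skin and is itself an early response gene, did not have its highest levels where ZNF750 had them. It stood at 3.43, 3.41 and 0.852 UMIs per 10000 in the DLK2 cells of cows 1 to 3 and at 1.87, 3.11 and 0.921 in KRT15 cells. In GSTA1-high GJA1 cells it was at 1.32, 2.60 and 0.717 and in BPIFA2C cells at 1.30, 1.73 and 0.900. Cows 1 and 2 were highest in DLK2 cells. Cow 3 was low throughout, from 0.613 in GSTA1 cells without GJA1 to 0.921 in KRT15 cells, so that all states overlapped. Within each cow, however, KLF4 was below its level in KRT15 cells in all 4 states other than DLK2 cells. The log2 differences from KRT15 cells were 0.21 ± 0.19 in DLK2 cells, -0.47 ± 0.19 in GSTA1 cells without GJA1, -0.47 ± 0.20 in GSTA1-low GJA1 cells, -0.33 ± 0.19 in GSTA1-high GJA1 cells and -0.46 ± 0.21 in BPIFA2C cells, with edgeR adjusted p from 0.089 to 0.503. Without cow 3, KLF4 was called lower in GSTA1-low GJA1 cells (-0.62, adjusted p = 0.014) and in BPIFA2C cells (-0.65, 0.013). It was also called lower in all 4 states other than DLK2 cells when no filter on low counts was used (adjusted p from 0.00024 to 0.017), and in GSTA1-high GJA1 and BPIFA2C cells with looser gates (-0.41, adjusted p = 0.039, and -0.45, 0.037).

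KLF4 moved with the immediate-early genes, a set that includes FOS, JUN and EGR1 and not KLF4, and that responds within minutes to stimulation of a cell. The summed level of the 17 genes was 26.3 to 123 per 10000 in DLK2 cells, 22.1 to 94.5 in KRT15 cells, 11.6 to 59.3 in GSTA1-high GJA1 cells and 15.6 to 41.2 in BPIFA2C cells. When each cow's cells were split at the cow's median for this sum, KLF4 was higher above the median than below it in 18 of 18 sums, by 2.70-fold in the median. In KRT15 cells it was at 0.922, 2.27 and 0.392 below the median and at 3.57, 4.18 and 1.38 above it in cows 1 to 3. The other members were higher above the median less uniformly, TFAP2A in 16 of 18 sums, KLF5, OVOL1 and EHF in 15 each, GRHL3 in 13, ELF3 and ZNF750 in 11 each, GRHL1 in 9 and TP63 in 7. The median ratio was 1.82-fold for GRHL3, over the sums in which it had UMIs below the median, 1.54-fold for EHF and 1.51-fold for OVOL1. The order of the 6 states by KLF4 and by the immediate-early sum was the same in cow 2 (Spearman's rho = 1.0), less alike in cow 1 (0.829) and least in cow 3 (0.600), where KLF4 was highest in KRT15 cells and the sum in DLK2 cells. Within the cells below the median, the log2 differences of KLF4 from KRT15 cells ran from -0.27 to 0.19 (edgeR adjusted p from 0.359 to 0.988). KLF4 was called in no contrast over all cells of the states either, so the lack of a call in these fewer cells decides nothing. The part of the immediate-early genes in the level of KLF4 was not tested.

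**Figure D3:**
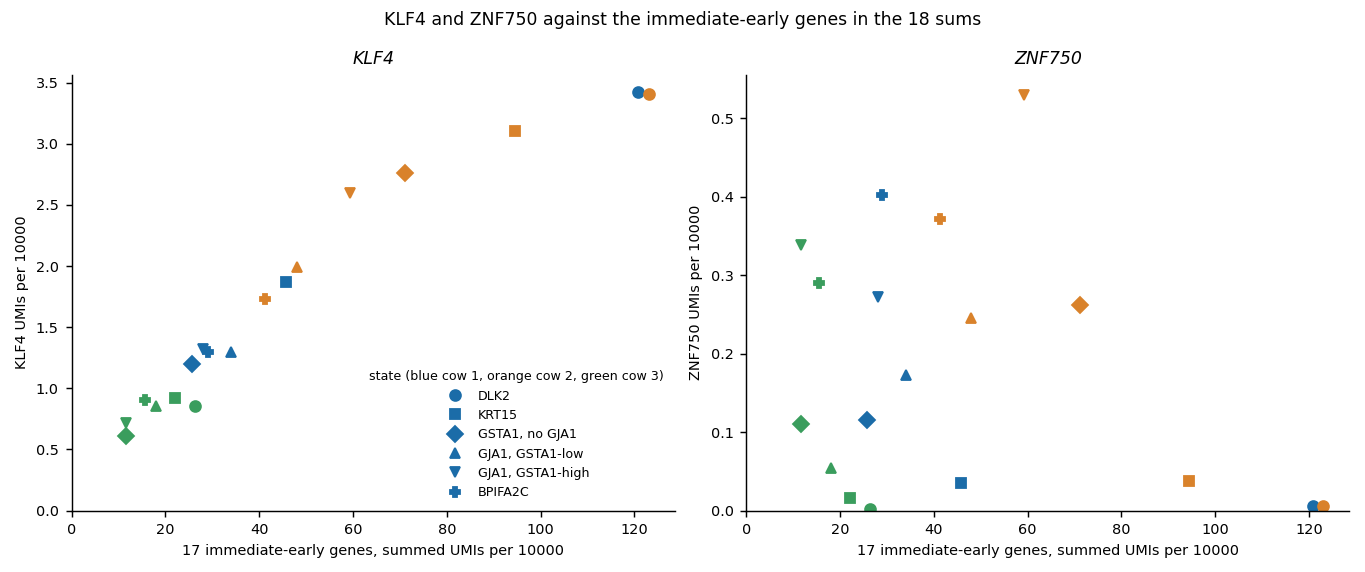
The x axes give the summed level of 17 immediate-early genes and the y axes the level of KLF4 (left) or ZNF750 (right), all linear in UMIs per 10000. Each of the 18 points is 1 state (marker shape) of 1 cow (colour). Over the pooled points KLF4 runs from 0.613 in the GSTA1 cells without GJA1 of cow 3 to 3.43 in the DLK2 cells of cow 1, with the cows at different levels, while ZNF750 is at 0.0062 or less in all DLK2 sums.

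TP63, the factor that keeps cells in the stratified lineage, varied more between cows than between states. Over all cells it stood at 1.08, 0.379 and 0.581 UMIs per 10000 in cows 1 to 3. In KRT15 cells it was at 1.28, 0.398 and 0.566 and in DLK2 cells at 0.947, 0.369 and 0.677. In GSTA1-high GJA1 cells it was at 0.958, 0.303 and 0.386 and in BPIFA2C cells at 0.889, 0.281 and 0.393. Cow 1 was highest and cow 2 lowest in each state, so the ranges overlapped, yet within each cow the GSTA1-high and BPIFA2C cells were below the KRT15 cells. TP63 fell by 0.39 ± 0.12 on the log2 scale in GSTA1-high GJA1 cells (edgeR adjusted p = 0.020, and 0.158 without cow 2) and by 0.42 ± 0.14 in BPIFA2C cells (0.035, with 0.110 without cow 1 and 0.203 without cow 2). These are 0.763 and 0.749 times the KRT15 level. Between the GJA1 states TP63 was lower in the GSTA1-high cells of 3 of 3 cows than in the GSTA1-low cells, which held 1.21, 0.435 and 0.540, but the difference of -0.38 ± 0.13 was not called (edgeR adjusted p = 0.182). In DLK2 cells the difference was -0.23 ± 0.11 (adjusted p = 0.186), of one sign in cows 1 and 2 and of the other in cow 3, and it was called without cow 3 (-0.41, adjusted p = 0.019) and with stricter gates (-0.43, 0.030). In GSTA1 cells without GJA1 TP63 was at 1.03, 0.335 and 0.485, below the KRT15 cells in 3 of 3 cows. That difference of -0.29 ± 0.11 had an edgeR adjusted p of 0.099, and it was called with stricter gates (-0.43, 0.028) and in cells at or under their cow's median for immediate-early genes (-0.40, 0.0063). With DESeq2 the fall in BPIFA2C cells had an adjusted p of 0.055. In BPIFA2C cells with at least 1% of mitochondrial UMIs the fall was 0.32 with an adjusted p of 0.120. Neither fall was called without the block (adjusted p = 0.786 and 0.750), with looser gates (0.064 and 0.078) or in cells of 5000 to 15000 UMIs (0.277 and 0.445).

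TFAP2A, an AP-2 factor of the early epidermal programme, varied little over the states. It was at 0.540, 0.494 and 0.419 UMIs per 10000 in the DLK2 cells of cows 1 to 3, at 0.568, 0.440 and 0.371 in KRT15 cells and at 0.562, 0.408 and 0.517 in BPIFA2C cells. No state stood apart from another. Its log2 differences from KRT15 cells ran from -0.17 ± 0.11 in GSTA1 cells without GJA1 to 0.21 ± 0.14 in BPIFA2C cells, with edgeR adjusted p from 0.298 to 0.955, and it was called under none of the alternatives tried.

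The state genes were also followed as a scale, over all 20728 cells grouped by their UMIs of GSTA1 (0, 1 to 2, 3 to 9, 10 or more). ZNF750 was at 0.020, 0.024 and 0.0095 UMIs per 10000 in cells of cows 1 to 3 without GSTA1 and at 0.339, 0.469 and 0.176 in cells with 10 or more. ZNF750, GRHL1, ELF3 and KLF5 were higher at every step in 3 of 3 cows, OVOL1 in 2 and GRHL3 in 1. KLF5 went from 2.17, 1.70 and 1.55 to 3.13, 2.08 and 2.30. TP63 went the other way, from 1.13, 0.384 and 0.625 to 0.888, 0.295 and 0.444, and KLF4 was also lower at the end than at the start in 3 of 3 cows. EHF was higher at the end than at the start in 1 of 3 cows, and so was TFAP2A.

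Along DLK2 the same factors ended lower than they started, though often not at every step. ZNF750 was at 0.142, 0.137 and 0.057 UMIs per 10000 in the cells of cows 1 to 3 without DLK2 and at 0.0059, 0.012 and 0 in cells with 3 or more UMIs of it. GRHL1, GRHL3, OVOL1, ELF3 and KLF5 were likewise lower at the end than at the start in 3 of 3 cows, and TFAP2A was higher. ZNF750 fell at every step in 2 of 3 cows, GRHL3, OVOL1, ELF3 and KLF5 in 1 each and GRHL1 in 0. Along GJA1 (0, 1, 2 to 3, 4 or more UMIs) the steps were less regular. ZNF750, GRHL1 and OVOL1 were higher at every step in 2 of 3 cows, KLF5 and GRHL3 in 1 and ELF3 in 0, though all 6 were higher at the end than at the start in 3 of 3 cows. Along KRT15, in 5 groups of equal size per cow, ZNF750, GRHL1, GRHL3, OVOL1 and ELF3 were lower at the end than at the start in 3 of 3 cows and KLF5 was higher. ZNF750 fell at every step in 1 of 3 cows and GRHL1, GRHL3, OVOL1 and ELF3 in 0, and KLF5 rose at every step in 1. These groups are cut from the same cells as the states, and cells with more UMIs reach a higher group more easily, so the steps are descriptions with no test of their own.

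**Figure D4:**
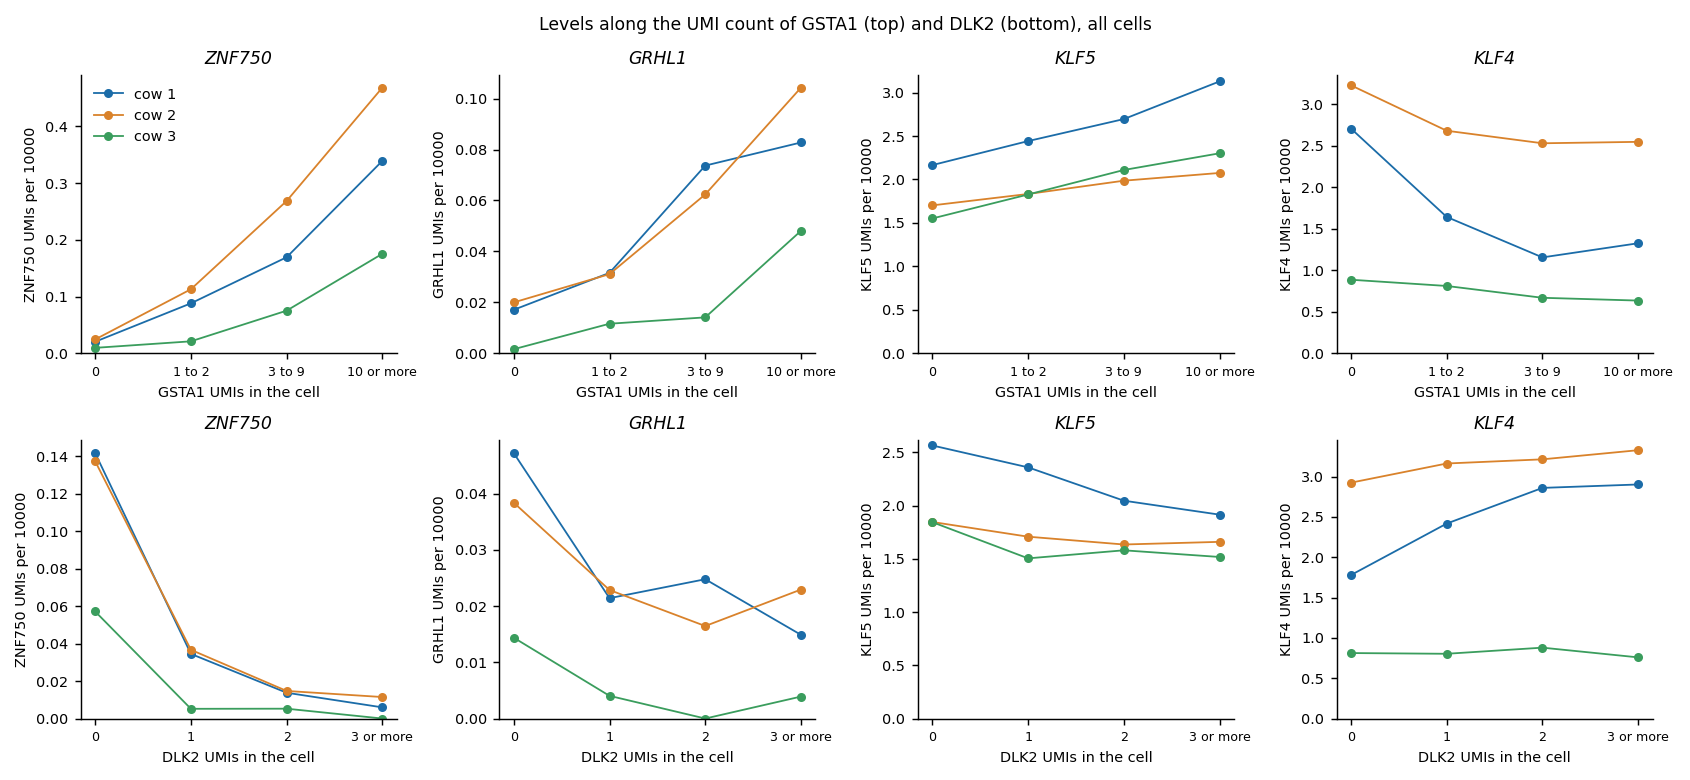
Levels of ZNF750, GRHL1, KLF5 and KLF4 in UMIs per 10000 (linear y axes from 0) are plotted for all cells of each cow (colour), grouped by the UMIs of GSTA1 (top row) or DLK2 (bottom row) in the cell. ZNF750, GRHL1 and KLF5 climb at each step of GSTA1 in every cow, and ZNF750 in cells with 10 or more GSTA1 UMIs is at 0.339, 0.469 and 0.176.

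Among 22 other epithelial transcription factors, of which 19 were in the matrix and 12 passed the filter, the calls ran in both directions. In DLK2 against KRT15 cells 3 were called higher and 2 lower, beside 8.28% and 10.3% of all genes. The largest rise was that of TP73, the p53-family relative of TP63, at 2.19 ± 0.24 (edgeR adjusted p = 3.9e-07), followed by TFAP2C, the relative of TFAP2A, at 1.02 ± 0.18 (0.00030, but 0.140 without the block). Which sums carried the 12 factors over the filter was not looked at, and a gene high in DLK2 cells alone could pass it. The counts and adjusted p-values of these factors carry that limit. TP73 was lower in GSTA1-high GJA1 cells by -3.04 ± 0.58 (edgeR adjusted p = 0.00032), where 3 of the 12 were called higher and 5 lower, beside 15.2% and 14.0% of all genes. TP63 and TFAP2A had differences of -0.23 and -0.02 in the first of these contrasts and of -0.39 and 0.11 in the second. In BPIFA2C against KRT15 cells 2 of the 12 were called higher and 5 lower, beside 14.0% and 12.8% of all genes. Between the 2 GJA1 states and between BPIFA2C and GSTA1-high GJA1 cells 0 of 12 were called by edgeR.

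Genes of the programmes that these factors are known to act on were followed as 2 further groups. Of 20 late differentiation genes 15 were in the matrix and 6 passed the filter. The summed level of the 15 was 0.368 to 0.555 UMIs per 10000 over the cows in DLK2 cells and 0.607 to 0.965 in KRT15 cells. It was 2.09 to 2.35 in GSTA1-high GJA1 cells and 3.20 to 5.42 in BPIFA2C cells. In BPIFA2C against KRT15 cells 4 of the 6 were called higher, beside 14.0% of all genes. Their median log2 fold change was 1.68, against -0.04 over all genes tested. They were led by TGM1 (6.52 ± 0.55) and TGM3 (6.36 ± 0.34), transglutaminases that cross-link the cornified envelope. Which sums carried the 6 over the filter was not looked at, and a gene high in BPIFA2C cells alone could pass it. The count and the median are thus descriptions and not support for a direction of the list. In DLK2 cells 3 of the 6 were called lower and 0 higher, beside 10.3% and 8.28% of all genes. The fall was led by TMEM79, a membrane protein of the secretory granules of upper keratinocytes (-1.41 ± 0.18, edgeR adjusted p = 3.8e-06). TGM1, unlike ZNF750, stood higher in BPIFA2C than in GSTA1-high GJA1 cells (5.72 ± 0.58, edgeR adjusted p = 1.1e-06). The adjusted p-values of TMEM79 and TGM1 carry the same limit of the filter.

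Of 15 genes of basal adhesion and basal keratins 14 were tested, and 9 were called lower and 2 higher in BPIFA2C against KRT15 cells, beside 12.8% and 14.0% of all genes. Their largest falls there were those of CDH3, P-cadherin, by 1.65 ± 0.22 on the log2 scale (edgeR adjusted p = 5.4e-06), and of COL17A1, a hemidesmosome collagen, by 1.33 ± 0.13 (8.6e-08). CDH3 was not called in cells of 5000 to 15000 UMIs (-0.48, adjusted p = 0.440). The summed level of the 15 genes overlapped, at 96.2 to 157 UMIs per 10000 over the cows in KRT15 cells and 68.2 to 166 in BPIFA2C cells. KRT14, 1 of the 15, stood at 19.8 to 49.1 in KRT15 cells and 16.8 to 89.3 in BPIFA2C cells. TP63, which binds at many such genes in skin, fell by 0.42 in the same contrast, with the limits given for it above. A link of TP63 to these genes was not tested. Cycling genes moved between the states as well, with 7 of 12 called higher in DLK2 cells, 12 in GSTA1 cells without GJA1, 8 in GSTA1-low GJA1 cells, 4 in GSTA1-high GJA1 cells (1 lower) and 4 in BPIFA2C cells (1 lower), beside 8.28%, 8.46%, 12.7%, 15.2% and 14.0% of all genes called higher. In DLK2 cells their sum was 2.53, 1.25 and 9.79 UMIs per 10000 in cows 1 to 3, against 2.41, 1.11 and 3.23 in KRT15 cells. Without the cells that held a UMI of 4 cycling genes, GRHL1 and OVOL1 were no longer called in GSTA1 cells without GJA1 (adjusted p = 0.107 and 0.102), and KLF5 was called in GSTA1-low GJA1 (0.34, 0.030) and BPIFA2C cells (0.34, 0.032).

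As a description, the genes whose levels over the 18 sums were most like each member's, after each cow's mean was taken off on the log2 scale, were listed without a test. ZNF750 was nearest to IMPDH1 (Pearson r = 0.978) and FIBP (0.973), KLF5 to TTLL10 (0.974) and ME1 (0.972), and GRHL1 to TOMM6 (0.970) and CKB (0.968). OVOL1 was nearest to EBP (0.965) and GPS1 (0.952), GRHL3 to CLCN2 (0.947) and ENDOU (0.945), and ELF3 to RMND5B (0.937) and ATOX1 (0.932). Among the genes most like KLF4 was KLF6 (0.938), which belongs to the immediate-early set. The members with flat levels had weaker neighbours, with CNOT6L at 0.869 for TP63, IQANK1 at 0.837 for TFAP2A and WDR20 at 0.835 for EHF. The sums of a cow share a library, and each r was picked from among the highest of 9262 genes.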

How the data were processed

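Dissociated rumen cells of 3 cows were measured with a droplet kit that reads the 3′ end of transcripts. Per the labels and the study's methods, the authors aligned reads to a cattle genome and made UMI counts with Cell Ranger 3.1.0, filtered cells with Seurat on genes, UMIs and mitochondrial share, identified doublets with DoubletFinder, and deposited 1 matrix of raw counts for all cows. A second deposited table, the authors' natural log of scaled counts, carries gene and cell names and was used only to name the rows of the counts (of 1967 rows compared, 0 differed from the scaled counts by over 1e-06). No further doublet caller was run. Cows were taken from the suffix of each cell's barcode. Cells were not clustered.

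UMI counts were summed per cow and state (gates in the text, sums of under 10 cells left out) and fitted across all genes and all 6 states with edgeR 4.0.16 (R 4.3.3), TMM scaling, filterByExpr and the cow as a block. The SE of a log2 fold change is its size over the root of its F statistic. Same-cow sums deviated together from the state means (mean r = 0.588, 0.545 and 0.568 for cows 1 to 3, and -0.319 between cows), and the states of a cow come from 1 animal. The value between cows is pulled negative by taking off each state's mean over the cows, so it adds no support for the block. The fit was tested on simulated counts of DLK2 against KRT15 cells for 9140 genes, where 60% of genes changed 2-fold and 89% of those changed 4-fold were recovered with 0 false calls. The simulated counts of these states held no difference between cows, so they do not show how often false calls arise where cows differ. Levels are UMIs per 10000 of a sum, and counting error is widest for the members with few UMIs, whose UMIs are given. DESeq2 1.42.0, other filters, gates, cell subsets and each cow left out were the alternatives. All 10 members are described, and of each other gene list the leading called genes may be named. The members, states and lists were chosen with earlier results of these data known. Paralogs such as GRHL1 and GRHL3 were counted as the authors' pipeline assigned reads, and isoforms cannot be told apart in 3′ counts. A gene among those most like KLF4 is not reported here.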

Additional observations from a re-analysis of the deposited data

How the results depend on the processing

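Over 13 alternatives, 882 of 910 results of single members could be tested, and 800 of these kept their side of the threshold, 52 lost the call and 30 gained one. No called result changed sign, while 66 uncalled ones did, with log2 fold changes of at most 0.46 in size in the fit reported. The 28 missing results are GRHL3 in all contrasts without cow 2, in cells of 5000 to 15000 UMIs, without cycling cells and in cells at or under the median for immediate-early genes, where it did not pass the filter, so the member counts below are out of 9 there. The fit without the cow as a block moved most: 17 of the 25 calls were lost, and no call was gained. It called 172 genes in DLK2 against KRT15 cells, 2 in GSTA1 cells without GJA1, 288 in GSTA1-low and 553 in GSTA1-high GJA1 cells, 768 in BPIFA2C cells, 0 between the GJA1 states (296 at an unadjusted p under 0.05 in edgeR, not run with DESeq2) and 28 between BPIFA2C and GSTA1-high GJA1 cells, with 0, 0, 1, 3, 4, 0 and 0 members called (2, 2, 5, 5, 5, 1 and 1 at an unadjusted p under 0.05). In cells of 5000 to 15000 UMIs, where 1 BPIFA2C sum fell under 10 cells and was left out, it was 304 genes and 1 member in GSTA1 cells without GJA1, 996 and 2 in GSTA1-low GJA1 cells, 1234 and 4 in GSTA1-high GJA1 cells, 659 and 3 in BPIFA2C cells, 24 genes between the GJA1 states and 45 between BPIFA2C and GSTA1-high GJA1 cells. This window also leaves fewer cells, and the cause of the losses was not tested. Looser gates gave 1267 genes and 3 members in GSTA1-low GJA1 cells, 1074 genes between the GJA1 states and 158 genes and 2 members (EHF and ELF3) between BPIFA2C and GSTA1-high GJA1 cells, where stricter gates gave 149 genes and 1 member (GRHL1). Stricter gates gave 974 genes and 2 members (ZNF750 higher and TP63 lower) in GSTA1 cells without GJA1, and without cycling cells it was 488 genes and 1 member there. In cells at or under the median for immediate-early genes it was 1052 genes and 1 member in DLK2 cells and 101 genes and 1 member between BPIFA2C and GSTA1-high GJA1 cells. Without the filter on low counts 315 genes were called between the GJA1 states and 240 genes and 1 member between BPIFA2C and GSTA1-high GJA1 cells. DESeq2 called 139 genes between the GJA1 states, and cells with at least 1% of mitochondrial UMIs gave 71 genes between BPIFA2C and GSTA1-high GJA1 cells. With 1 cow left out, the counts ran from 840 to 1440 genes and 1 to 3 members in DLK2 cells, 569 to 967 and 2 to 3 in GSTA1 cells without GJA1, 1261 to 1658 and 3 to 6 in GSTA1-low GJA1 cells, 1718 to 1993 and 5 to 6 in GSTA1-high GJA1 cells, 1591 to 1836 and 5 to 7 in BPIFA2C cells, 31 to 124 and 1 between the GJA1 states, and 85 to 91 and 0 to 1 between BPIFA2C and GSTA1-high GJA1 cells. In DLK2 and KRT15 cells GRHL3, GRHL1 and ELF3 rest on 0 to 26 UMIs per sum, so their levels there carry wide counting error.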
